A study of Mus musculus with 16 samples.

Results

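The genes of the mitochondrial respiratory chain and ATP synthase were examined in whole-liver RNA of 16 mice. They were taken as every protein-coding row of the deposited table whose symbol begins with Nduf, Uqcr or Atp5, is one of the Sdh subunits A to D, names a cytochrome c oxidase subunit from Cox4 to Cox8, or names a protein encoded by the mitochondrial chromosome. This gave 110 of 25719 genes, 97 in the nucleus and 13 on the mitochondrial chromosome. Complex I had 53 of them, complex II 4, complex III 9, complex IV 24 and complex V 20. Ndufa4 and Ndufa4l2 were placed with complex IV, where the Ndufa4 protein sits. The symbols also brought in 8 complex I assembly factors named Ndufaf, which help to build the complex and are no subunits of it.

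Complexes I to IV pass electrons from NADH and succinate to oxygen and pump protons out of the mitochondrial matrix, except complex II, which pumps none. Complex V, the ATP synthase, lets the protons back and makes ATP. Most subunits are encoded in the nucleus and imported, whereas a few hydrophobic core subunits of complexes I, III, IV and V are transcribed and translated inside the mitochondrion. Hepatocytes, the main cells of the liver, hold many mitochondria and oxidise fatty acids in them, and fatty liver disease is a condition in which this capacity has been much studied.

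The mice were males, 8 to 12 weeks old, either wild type (WT) of the C57BL6J strain or Klrk1-/-. The paper lists the Klrk1-/- line as produced in house. Klrk1 encodes NKG2D, an activating receptor of NK and T cells, and Klrk1-/- mice lack it. They ate normal chow (NCD) or, for 3 weeks, a steatosis-steatohepatitis diet (SSD) with 40% of its calories from fat, 22% fructose and 2% cholesterol. There were 4 WT mice on NCD, 5 WT mice on SSD, 4 Klrk1-/- mice on NCD and 3 Klrk1-/- mice on SSD, with 1 library from each mouse. The comparisons ask what SSD does to these genes in each genotype, and whether the loss of NKG2D alters them on either diet.

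The libraries held 19892025 to 28936707 reads on genes. Klrk1 itself stood at 20.1 to 28.7 normalized counts in the WT NCD mice, 32.9 to 71.1 in WT SSD, 1.23 to 8.71 in Klrk1-/- NCD and 0.966 to 4.29 in Klrk1-/- SSD, so that no Klrk1-/- library reached a WT library. The 6 hepatocyte markers were abundant in every mouse, and the markers of skeletal muscle, white fat and brown fat were at or under 3 reads in every library of every group. One WT SSD library, replicate 1, differed more from the others of its group than they did from each other, at 73.2 to 101 chi-square units per gene against 18.8 to 36.1. Values below are normalized counts, which are reads divided by 1 factor per mouse, and differences are log2 fold changes of normalized count plus 1 with their standard error (SE).

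Nearly all members were expressed in every mouse. Of the 110 genes, 101 had more than 3 reads in every library, and 4 had no library above 3 reads. The 3 with 0 reads in all 16 mice were Cox7b2 and Cox8c, the testis isoforms of subunits 7b and 8 of cytochrome c oxidase, and Ndufb11b, a copy of Ndufb11. The 4th was Cox8b, the heart and muscle isoform of subunit 8, with 0 to 2.61 normalized counts. Per kilobase of transcript, the median level of the nuclear structural genes was 3168 normalized counts in complex I, 3538 in complex II, 7291 in complex III, 9154 in complex IV and 5568 in complex V. The highest single nuclear gene per kilobase was Atp5b, the catalytic beta subunit of the ATP synthase, at 20252, and the highest of complex IV was Cox4i1 at 16592. Within complex I the range ran from 428 per kilobase for Ndufb4 to 8242 for Ndufa6, both supernumerary subunits that surround the catalytic core.

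The liver used the isoforms that are known for it. Cox4i1, the ubiquitous form of subunit 4, averaged 10475 normalized counts in WT NCD mice, whereas its lung isoform Cox4i2 reached at most 6.66 in any mouse. Cox6a1, the liver form of subunit 6a, averaged 8607, whereas the muscle form Cox6a2 averaged 2.04. Cox7a2 averaged 4637 and the muscle form Cox7a1 42.0. Cox6a2 had 44.5 normalized counts in WT SSD replicate 1 and 2.86 to 11.8 in the other WT SSD mice. That library held no muscle marker above 3 reads. Subunit c, which forms the rotor ring of the ATP synthase, is encoded by 3 genes with the same mature protein. Atp5g3 averaged 10845 ± 1320 normalized counts in WT NCD and 7409 ± 642 in WT SSD mice (SD, n = 4 and 5), a change of -0.55. Atp5g1 went from 4252 ± 481 to 2794 ± 251, a change of -0.60, and both passed the test described with the diet comparison. Atp5g2, at 488 ± 68.7 and 451 ± 45.6, did not (-0.11). Of the stretches of 100 bases in these transcripts, 65.3% in Atp5g1 and 87.5% in Atp5g2 also occur elsewhere in the genome, so their values are uncertain.

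The mitochondrial genes fell into 3 levels that went with their place on the chromosome or their strand. Of the 13 genes, 6 averaged between 2.08 (mt-Atp8) and 52.3 (mt-Nd3) normalized counts over all mice, while mt-Nd5, the lowest of the 6 high genes, averaged 186087. The third level was mt-Nd6 at 1555, which is the only one of the 13 on the minus strand and overlaps mt-Nd5. The 6 low genes were mt-Co2, mt-Atp8, mt-Atp6, mt-Co3, mt-Nd3 and mt-Nd4l, and they lie side by side. In the mouse genome GRCm39 a stretch of chromosome 1, chr1:24650616-24655265 on the minus strand, repeats chrM:6394-11042 with 1 substitution over 4649 aligned bases and 1 base more on chromosome 1. It holds all 6 low genes entire, 63.57% of mt-Nd4 and 31% of mt-Co1, and none of mt-Nd1, mt-Nd5, mt-Nd6 or mt-Cytb. Of all windows of 100 bases, the read length, 98.8% to 100% of those in the 6 low genes occur on both chromosomes. A read from such a window has more than 1 position in the genome. How reads with several positions were counted is not given in the sources used here, and the part of this in the low values was not tested.

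The sequences that follow show what such a window looks like. The first pair is a window of mt-Co2, which is the same on both chromosomes (GRCm39, chrM:7305-7404 on the plus strand and chr1:24654255-24654354 on the minus strand), read 5′ to 3′.

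mt-Co2 on the mitochondrial chromosome: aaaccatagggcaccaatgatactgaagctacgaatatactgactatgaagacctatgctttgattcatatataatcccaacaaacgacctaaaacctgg

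mt-Co2 copy on chromosome 1: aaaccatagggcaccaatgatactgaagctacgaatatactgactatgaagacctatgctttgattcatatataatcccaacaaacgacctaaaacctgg

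The second pair covers the start of mt-Nd3 (chrM:9411-9510 on the plus strand and chr1:24652149-24652248 on the minus strand) and holds the single substitution, marked by the capital. Whether this substitution bears on the level of mt-Nd3 was not tested.

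mt-Nd3 on the mitochondrial chromosome: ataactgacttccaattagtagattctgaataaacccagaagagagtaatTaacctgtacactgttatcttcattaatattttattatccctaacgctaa

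mt-Nd3 copy on chromosome 1: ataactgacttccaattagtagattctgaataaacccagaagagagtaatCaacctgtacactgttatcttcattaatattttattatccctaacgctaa

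In mt-Co1 the copied stretch begins inside the gene (chrM:6344-6443, plus strand). Capitals mark the bases that chromosome 1 also holds, and the lower-case bases lie just before the copied stretch.

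mt-Co1 at the edge of the copied stretch: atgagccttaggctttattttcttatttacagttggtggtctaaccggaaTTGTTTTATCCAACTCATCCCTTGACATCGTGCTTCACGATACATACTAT

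**Figure D1:**
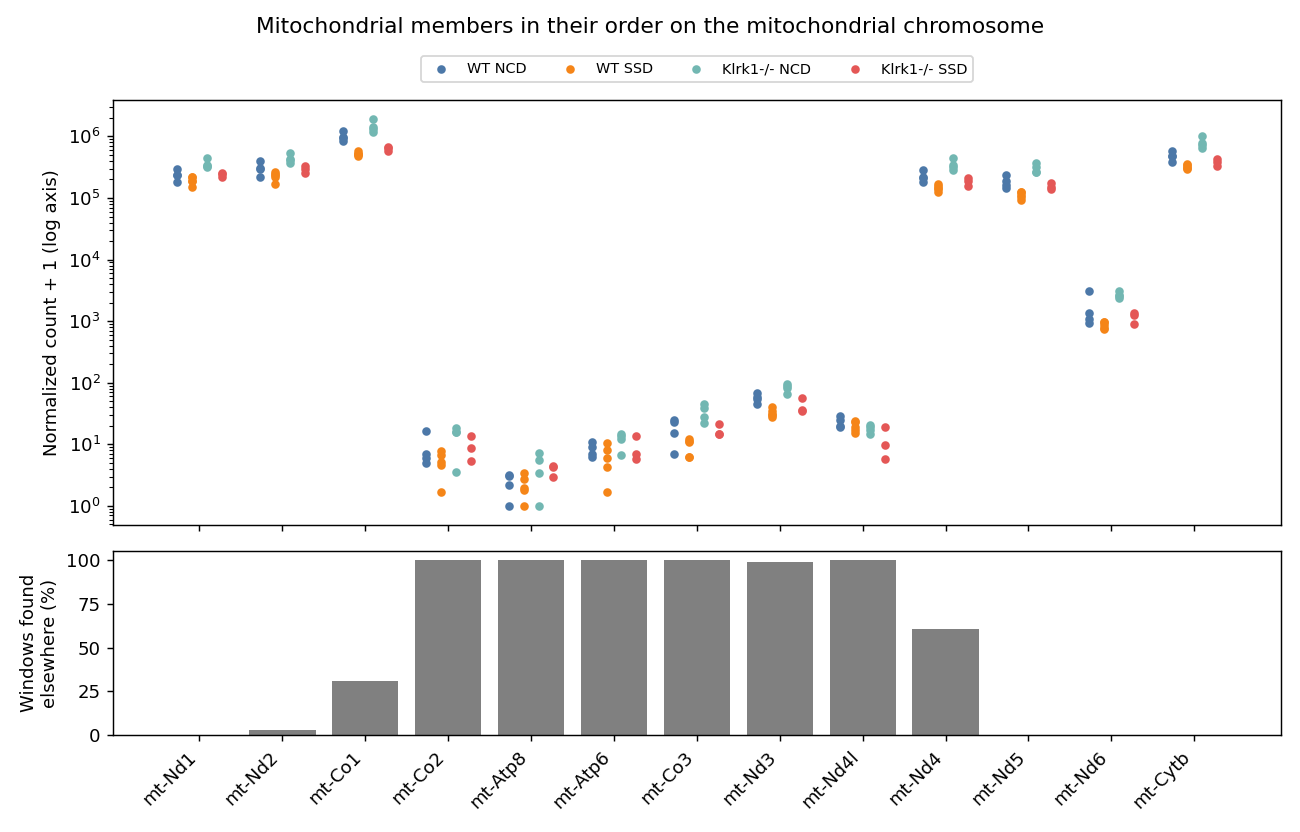
Normalized count plus 1 (log axis) of the 13 mitochondrial members in each of the 16 mice, in their order on the chromosome, with 1 point per mouse coloured by group. The lower bars give the percent of 100-base windows of each gene that occur elsewhere in GRCm39. The 6 genes with bars at 98.8% to 100% have means of 2.08 to 52.3 normalized counts, and the 6 other genes of the plus strand, with bars of 60.75% or less, have means of 186087 or more.

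Of the other mitochondrial genes, mt-Nd1, mt-Nd2, mt-Nd5, mt-Nd6 and mt-Cytb have 3.19% of their windows or fewer shared and mt-Co1 has 30.84%. In mt-Nd4 60.75% are shared, and its values are uncertain. The counts and medians of mitochondrial members below include every member tested, low genes too. Changes of mt-Nd3, mt-Co3, mt-Co2 and mt-Nd4l are those of the few reads listed for them. Among the nuclear members 66 of 97 shared no window with another place in the genome. More than 50% of the windows were shared in 5, namely Atp5l (57.43%), Ndufs5 (61.76%), Atp5g1 (65.3%), Cox7c (68.25%) and Atp5g2 (87.5%), and their values are uncertain for the same reason. The table also lists 2 overlapping genes under the symbol Atp5o on the same strand of chromosome 16, between which reads may be divided. In all, 67 members overlap another gene on the opposite strand, and whether the counting used strand is not given in the sources used here.

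Reads on the 13 mitochondrial genes took a large and variable share of each library. They made up 7.77% to 11.6% of the reads in WT NCD mice, 6.90% to 7.94% in WT SSD, 11.9% to 16.8% in Klrk1-/- NCD and 7.66% to 9.06% in Klrk1-/- SSD. The 4 Klrk1-/- NCD mice were thus above all other mice, whereas the WT groups of both diets overlapped. The 97 nuclear members took a far steadier share, 1.26% to 1.45%, 1.16% to 1.35%, 1.37% to 1.44% and 1.299% to 1.43% of the reads in the same order of groups. For each read on a nuclear member there were 5.80 to 8.52 mitochondrial reads in WT NCD mice and 8.30 to 12.3 in Klrk1-/- NCD mice. On SSD this ratio was 5.604 to 6.86 in WT and 5.90 to 6.45 in Klrk1-/- mice. The highest and the lowest NCD values of the genotypes overlapped, and on SSD the Klrk1-/- range lay inside the WT range.

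**Figure D2:**
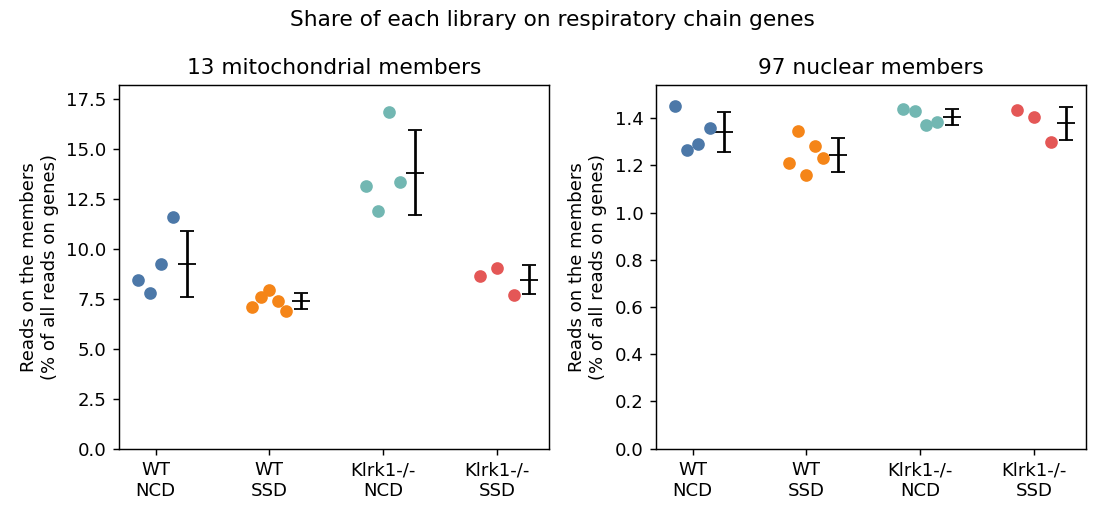
Percent of all reads on genes that fell on the 13 mitochondrial members (left) and on the 97 nuclear members (right), 1 point per mouse, with the group mean and SD as the black bar. The 4 Klrk1-/- NCD mice lie at 11.9% to 16.8% for the mitochondrial members, above the other 12 mice, while the nuclear share stays between 1.16% and 1.45% in every mouse.

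Most nuclear members of complexes I, III, IV and V were lower on SSD in WT mice, as were 2 of 4 in complex II and 5 of the 10 mitochondrial members tested. Of 101 members tested, 76 fell and 1 rose at an adjusted p under 0.05 (limma, Benjamini-Hochberg over all 13091 genes tested), whereas 17.6% of all genes fell and 17.3% rose. Past the fold limit of 1.5 that the study used, 25 members fell and 1 rose, against 7.32% and 11.9% of all genes. The median change was -0.48 for the 91 nuclear members and -0.66 for the 10 mitochondrial ones, with -0.0015 over all genes tested. The other 2842 genes with a mean of at least 1000 normalized counts had a median of -0.13, and 891 of them fell. In 59 nuclear and 5 mitochondrial members every SSD mouse lay below every NCD mouse, as in 15.5% of all genes tested. Without WT SSD replicate 1, the library that stood apart, 75 members fell and 1 rose, against 17.4% and 16.9% of all genes.

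These values depend on how the libraries are scaled. The normalized counts of a library summed to 25001171 to 27985228 in NCD mice and to 19222033 to 22666465 in SSD mice, so the authors' factors set the SSD libraries lower as a whole. With every library scaled to the same total, the median of all genes moved to 0.34 and that of the nuclear members to -0.13, and 15 members fell and 2 rose, while 5.46% of all genes fell and 48.1% rose. The nuclear and mitochondrial medians stayed below that of all genes. Summed hepatocyte markers went from 2152030 to 2448010 normalized counts in WT NCD mice to 1394340 to 1785250 in WT SSD mice. Alb made up 72.2% to 79% of the sum. Of the 6 markers Alb, Apoa1 and Cps1 lay lower with no overlap, whereas Ttr, Asgr1 and Hnf4a overlapped, Hnf4a at 11395 to 12456 on NCD and 8759 to 13070 on SSD. Summed markers of Kupffer cells and macrophages went from 3946 to 4193 to 5792 to 12582, those of sinusoidal endothelium from 929 to 1466 to 1475 to 1942, and those of T and NK cells from 24.1 to 30.2 to 32.7 to 57.1. Of the single markers in these sums Cd68, Cd5l and Cd3e were higher on SSD with no overlap. The macrophage markers Clec4f, Csf1r and Adgre1 overlapped, as did Cd8a, Nkg7 and Ncr1 and all of the endothelial markers (Stab2, Pecam1 and Lyve1). Their part in the result was not tested, and in bulk tissue fewer cells of a type cannot be told apart from less RNA per cell.

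The largest falls among nuclear members were in complexes I to IV, and mt-Co1 (-0.91) fell by more than any of them. Ndufaf6, an assembly factor of complex I (GRCm39 chromosome 4, 11051045 to 11076205), stood at 374, 266, 267 and 263 normalized counts in WT NCD mice and at 142, 168, 147, 152 and 170 in WT SSD mice. Every SSD mouse was below every NCD mouse. The change was -0.89 (SE 0.13, limma adjusted p = 0.000327).

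Uqcr11, the smallest subunit of complex III (chromosome 10, 80238831 to 80242664), stood at 6319, 4504, 5406 and 5970 on NCD and at 2639, 3564, 2527, 3151 and 3134 on SSD. It changed by -0.89 (SE 0.13, limma adjusted p = 0.000295), again with no overlap. Sdhb, the iron-sulfur subunit of complex II (chromosome 4, 140688514 to 140706504), stood at 6577, 4879, 5661 and 5712 on NCD and at 3222, 3666, 3079, 3556 and 3190 on SSD. Its change was -0.77 (SE 0.10, limma adjusted p = 0.000146). Cox7b, an X-linked subunit of complex IV, went from 6151 ± 1082 (SD, n = 4) to 3635 ± 414 (SD, n = 5), a change of -0.75. Uqcrh, the hinge protein of complex III, went from 5074 ± 1169 (SD, n = 4) to 3117 ± 299 (SD, n = 5), a change of -0.68. For each of these 5 genes the exact two-sided permutation test gave p = 0.0159, the smallest it can give for these group sizes. The genes were chosen as the largest called falls, so this p adds no separate support.

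By complex, all 8 tested nuclear members of complex III fell (median -0.51), and so did 36 of 45 in complex I (-0.49), 15 of 18 in complex V (-0.50), 10 of 16 in complex IV (-0.37) and 2 of 4 in complex II (-0.44). Within complex I the assembly factors had the lowest median, -0.64, with 7 of 8 falling, among them Ndufaf3 and Ndufaf5 at -0.68 each. The supernumerary subunits had 24 of 30 falling (-0.47). Of the 7 core subunits of the matrix arm, where NADH is oxidised, 5 fell (-0.43), Ndufv2 most, at -0.66. Ndufs1, the large iron-sulfur subunit, was at -0.17 (SE 0.12, limma adjusted p = 0.279) and did not pass.

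In complex II 2 of the 4 subunits passed and all 4 changes were negative. No difference between subunits was tested. Sdhb and Sdhd, the latter a membrane anchor, fell by 0.77 and 0.57 on the log2 scale. Sdha, the flavoprotein that oxidises succinate, was at -0.31 (SE 0.13, limma adjusted p = 0.0861), with 6910 to 10029 normalized counts on NCD and 5875 to 7738 on SSD. Sdhc, the other anchor, was at -0.19. The core protein Uqcrc1 and the Rieske iron-sulfur protein Uqcrfs1 of complex III fell by 0.37 and 0.41, from 7024 ± 265 to 5439 ± 433 and from 5283 ± 660 to 3974 ± 400 (SD, n = 4 and 5). In complex IV Cox4i1, Cox5a and Cox8a fell by 0.32, 0.31 and 0.38, whereas Ndufa4 was at -0.34 (SE 0.13, limma adjusted p = 0.0615) and did not pass. With each of the 9 mice left out in turn, Cox4i1 passed 3 times, at adjusted p-values of 0.0238 to 0.0872 (limma), and Cox5a and Cox8a each time. With libraries scaled to the same total Cox4i1 and Cox5a turned to 0.03 each. In complex V the alpha subunit Atp5a1 fell by 0.40, a call lost without WT NCD replicate 1 or 2 or WT SSD replicate 4, and the beta subunit Atp5b was at -0.31 (SE 0.13, limma adjusted p = 0.0693).

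Of the mitochondrial genes 5 of 10 fell in WT mice. mt-Co1, the catalytic subunit of complex IV (mitochondrial chromosome, 5328 to 6872), had 828858 to 1204920 normalized counts in the NCD mice and 481189 to 572321 in the SSD mice. It changed by -0.91 (SE 0.25, limma adjusted p = 0.0158), and the groups did not overlap. mt-Nd5, a proton-pumping subunit of complex I (11742 to 13565), went from 184161 ± 38496 (SD, n = 4) to 111545 ± 15093 (SD, n = 5), a change of -0.71 (SE 0.19, limma adjusted p = 0.0123).

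The other 3 were mt-Nd3 (-0.79), mt-Nd6 (-0.75) and mt-Nd4 (-0.61). The fall of mt-Nd6 leaned on 1 mouse: WT NCD replicate 1 had 3076 normalized counts, the other 3 had 948 to 1368, and the 5 SSD mice had 735 to 961. Without it the change was -0.38 (limma adjusted p = 0.0561). Its call was also lost without WT NCD replicate 5 or any of WT SSD replicates 2 to 5, at adjusted p-values of up to 0.0979 (limma). mt-Nd4 lost its call without WT NCD replicate 3 or 5 or WT SSD replicate 4 or 5, at changes of -0.61 to -0.49 (limma adjusted p of 0.0513 to 0.0705). mt-Cytb of complex III was at -0.56 (SE 0.22, limma adjusted p = 0.0625), although its 4 NCD mice, at 382198 to 590993, lay above its 5 SSD mice, at 298162 to 352257. mt-Nd2 (-0.42) and mt-Nd1 (-0.28) did not pass either.

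**Figure D3:**
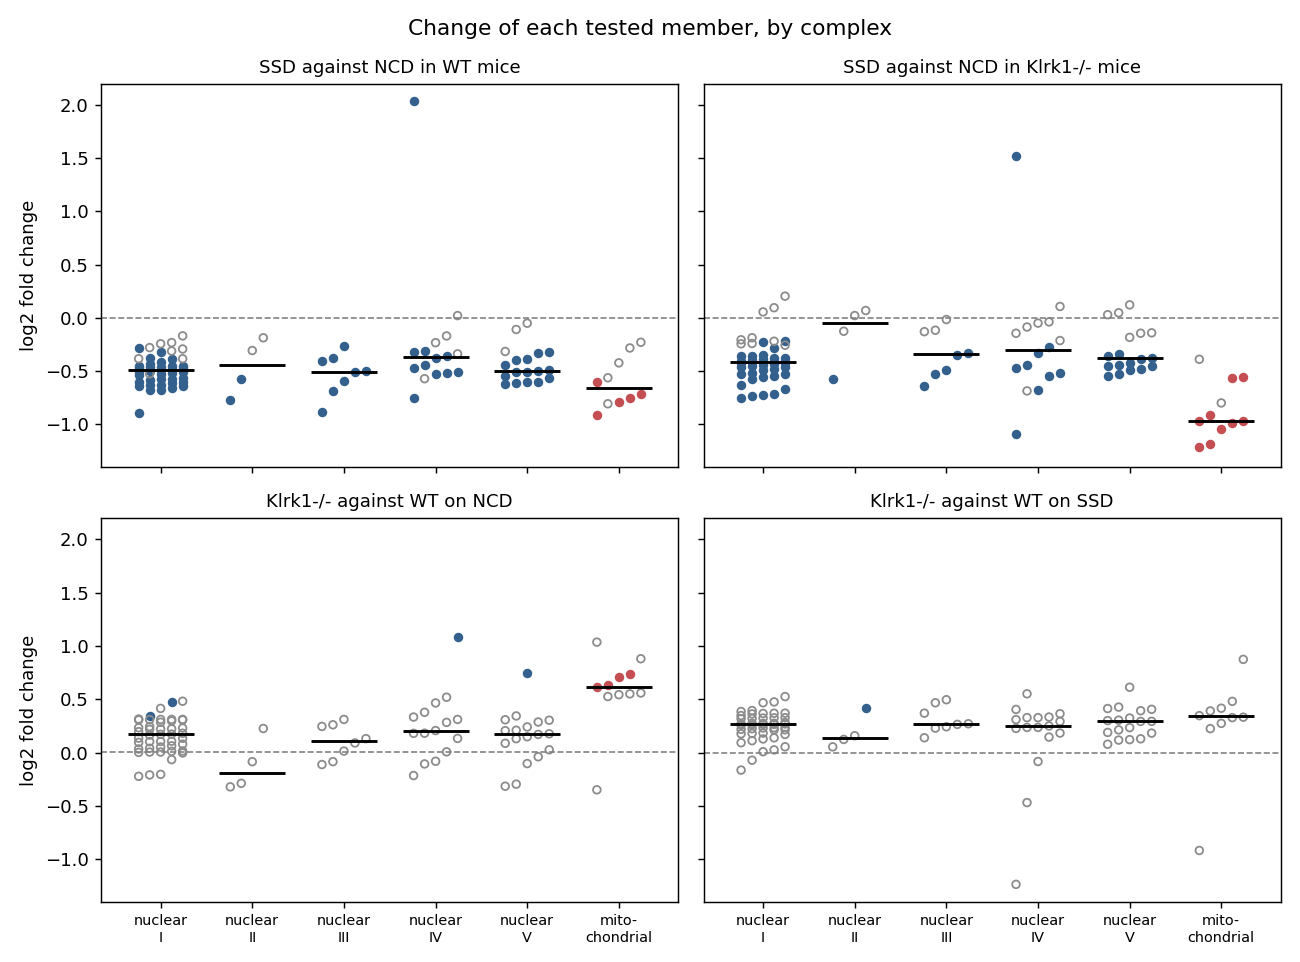
log2 fold change of each tested member in 4 comparisons, with nuclear members by complex and mitochondrial members apart. Filled points passed an adjusted p under 0.05 (limma), open ones did not, short bars are medians and the dashed line is the median of all genes tested. In WT mice the nuclear medians lie between -0.51 and -0.37 in all complexes, whereas in Klrk1-/- mice the mitochondrial median lies at -0.96 and that of complex II at -0.05.

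One member rose on SSD. Cox6b2, the testis isoform of subunit 6b (chromosome 7, 4754791 to 4756093), had 6.03, 8.05, 6.52 and 8.83 normalized counts in WT NCD mice and 29.2, 27.9, 25.7, 122.6 and 14.7 in WT SSD mice. It changed by 2.04 (SE 0.49, limma adjusted p = 0.00791), and by 1.57 without the mouse at 122.6. Among Klrk1-/- mice it went from 6.15 to 8.71 on NCD to 24.1, 32.9 and 16.3 on SSD, a change of 1.52 (SE 0.34, limma adjusted p = 0.00647). The gene passed the minimum mean of 10 only through its SSD mice, so a fall could not have been seen. The ubiquitous Cox6b1 fell in the same mice, from 6458 ± 1100 (SD, n = 4) to 4645 ± 485 (SD, n = 5) in WT.

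In Klrk1-/- mice most members were lower on SSD too, among them nearly all measured mitochondrial genes. Of 102 members tested, 71 fell and 1 rose (limma, Benjamini-Hochberg over 12904 genes), against 16% and 13.4% of all genes. Past 1.5-fold, 16 fell and 1 rose, against 6.6% and 6.54%. Of the nuclear members 62 of 91 fell, with a median of -0.39, and of the mitochondrial ones 9 of 11, with a median of -0.96. The 11 include mt-Co2, which averaged 7.85 normalized counts over all mice, under the minimum mean. It was tested only here and between the genotypes on NCD. Both comparisons hold the Klrk1-/- NCD mice, its higher group in each, so a rise of mt-Co2 on SSD could have gone untested. With every library scaled to the same total, 25 members fell and 7 rose, while 6.23% of all genes fell and 37.5% rose. In the same mice the summed hepatocyte markers went from 2065760 to 2784500 normalized counts to 1889340 to 2052670, with no overlap for Ttr, Apoa1 and Cps1 and overlap for Alb, Hnf4a and Asgr1. The sums of Kupffer cell and macrophage markers went from 3467.5 to 4215 to 4357 to 5659, those of stellate cell markers from 3639 to 4626 to 5365 to 6219, and those of bile duct markers from 34.8 to 68.4 to 70.5 to 94.0. Of the single markers in these sums Cd68, Cd5l, Adgre1, Dcn, Reln, Lrat and Epcam were higher on SSD with no overlap. Clec4f, Csf1r and Krt19 overlapped. Their part in the result was not tested. With 4 mice against 3, the exact permutation test cannot go below p = 0.0571, the value it gave for all genes named in the next paragraph.

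mt-Co1 went from 1302910, 1180440, 1894170 and 1449220 normalized counts on NCD to 637167, 685789 and 570337 on SSD, a change of -1.19 (SE 0.22, limma adjusted p = 0.00188). mt-Nd6 went from 2364, 3082, 2627 and 2570 to 1245, 1333 and 896, a change of -1.21 (SE 0.13, limma adjusted p = 5.48e-05). mt-Cytb changed by -1.05, mt-Nd3 by -0.99, mt-Co3 by -0.97, mt-Nd5 by -0.96, mt-Nd4 by -0.91, mt-Nd1 by -0.57 and mt-Nd2 by -0.56. In all 9 the SSD mice lay below the NCD mice, as in 19.7% of all genes tested. With each of the 7 mice left out in turn, mt-Nd1 passed 5 times, mt-Nd2 4 times and mt-Co3 3 times, and the other 6 each time. Under quantile normalization mt-Nd1 and mt-Nd2 turned to 0.21 and 0.07.

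By complex, the 8 assembly factors of complex I all fell (median -0.48), led by Ndufaf5 (-0.75) and Ndufaf7 (-0.73), and 25 of its 30 supernumerary subunits fell (-0.41), Ndufa5 (-0.73) and Ndufb3 (-0.72) most. Of its 7 core subunits 3 fell (-0.22). Complex III had 5 of 8 falling (-0.34), complex IV 8 of 16 (-0.30), complex V 12 of 18 (-0.38) and complex II 1 of 4 (-0.05), that 1 being Sdhb at -0.57 (SE 0.09, limma adjusted p = 0.000634).

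Uqcrc1 and Uqcrfs1 of complex III did not pass, at -0.12 and -0.13, nor did Cox4i1 and Cox5a of complex IV, at -0.14 and -0.05. Several subunits of complexes I, II and V that did not pass in Klrk1-/- mice had changes above 0. Ndufv1, the NADH-binding subunit of complex I, had 3126 to 3668 normalized counts on NCD and 4273, 3618 and 4109 on SSD, a change of 0.20 (SE 0.09, limma adjusted p = 0.102). Atp5b was at 0.12, Ndufs1 at 0.10, Sdha at 0.07 and Atp5a1 at 0.03. The largest nuclear fall was that of Ndufa4l2, a paralog of Ndufa4 that is known as a hypoxia-responsive gene, from 73.4 ± 14.001 (SD, n = 4) to 34.9 ± 12.1 (SD, n = 3), a change of -1.09 (SE 0.25, limma adjusted p = 0.0071). In WT mice it was at -0.23 and did not pass.

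Across both genotypes 63 of the 101 members tested in both fell in both, which is 82.9% of those that fell in WT and 88.7% of those that fell in Klrk1-/- mice. Over all 12767 genes tested in both, 1286 (10.1%) fell in both, 56.1% of those that fell in WT and 62.7% of those that fell in Klrk1-/- mice, and among the other genes with a mean of at least 1000 the shares were 60.5% and 76.2%. They comprised 58 nuclear members, 33 of them in complex I, 1 in complex II, 5 in complex III, 7 in complex IV and 12 in complex V, and 5 mitochondrial ones. These comparisons share no mice. The change was negative in both genotypes for 91 members. For all 10 mitochondrial members the change was more negative in Klrk1-/- mice, and for 71 of 91 nuclear members (78%) it was less negative or more positive there, as it was for 1954 of the 2842 other genes with a mean of at least 1000 (68.8%).

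**Figure D4:**
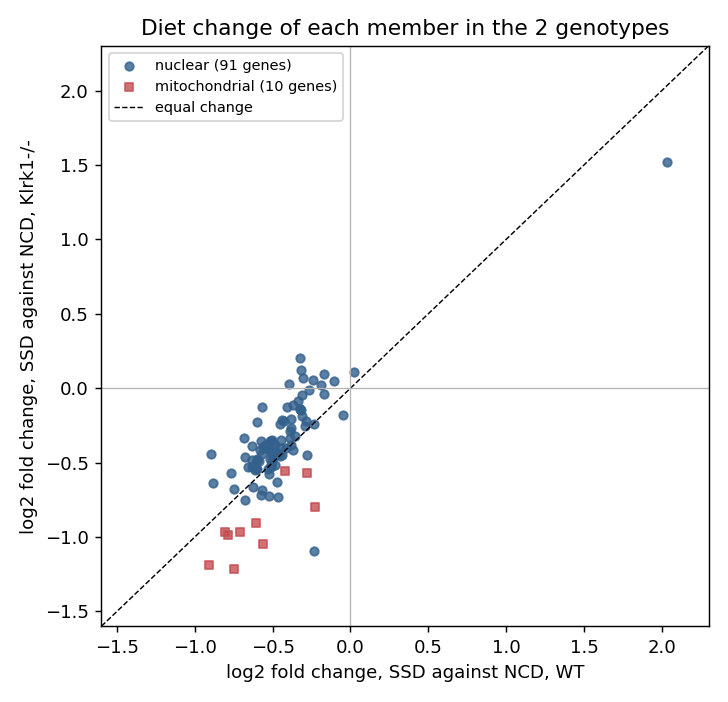
log2 fold change on SSD against NCD in Klrk1-/- mice (vertical) against that in WT mice (horizontal) for the 101 members tested in both, with nuclear members as circles and mitochondrial members as squares. The 10 squares lie below the dashed line of equal change, and 71 of the 91 circles lie above it.

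That contrast was tested as a diet by genotype interaction in 1 model of all 16 mice, and it called no member. Of 101 members 0 passed in either direction (limma), against 0.321% of all genes above and 0.559% below, and 10, all nuclear, had an unadjusted p under 0.05, against 17.3% of all genes. edgeR called 0 and DESeq2 1. The median interaction was -0.28 for the 10 mitochondrial members, all of them negative, and 0.11 for the 91 nuclear members, 71 of them positive. The other genes with a mean of at least 1000 had a median of 0.12, with 1954 of 2842 positive. Ndufv1 came nearest, at 0.53 (SE 0.13, limma adjusted p = 0.064), and the unadjusted p-values were 0.0214 to 0.0451 for Ndufaf6, Sdhd, Atp5b, Atp5a1, Uqcrc1, Cox5a, Ndufb9 and Uqcrc2. At these group sizes the diet response of the members was not shown to differ between the genotypes.

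On NCD 4 of the 11 tested mitochondrial members, mt-Nd5, mt-Cytb, mt-Nd4 and mt-Nd1, were higher in Klrk1-/- than in WT mice. With limma and the authors' factors the count over all members was close to the share of all genes. Array weights, DESeq2, quantile normalization or the same total of nuclear genes called more members. No minimum mean or no variance trend called fewer, and these counts are given in the last section. Of 101 members tested 8 were higher and 0 lower (limma, Benjamini-Hochberg over 12845 genes), against 6.41% and 6.66% of all genes, and past 1.5-fold 6 were higher and 0 lower, against 2.92% and 2.87%. Of the 8, 4 were mitochondrial. The median mitochondrial difference was 0.61 against 0.17 for the 90 nuclear members, and 83 of the 101 differences were positive. The mitochondrial median includes mt-Co2, which averaged 7.85 normalized counts over all mice, under the minimum mean. It was tested only in comparisons of groups that hold the Klrk1-/- NCD mice, its higher group. A difference of mt-Co2 in the other direction could thus have gone untested. The summed hepatocyte markers of the genotypes overlapped, with Ttr alone higher with no overlap in Klrk1-/- mice, at 212180 to 294110 against 167786 to 210711 normalized counts. Summed bile duct markers were lower there, at 34.8 to 68.4 against 76.0 to 178. Of these Krt19 was lower with no overlap, whereas Epcam overlapped. Their part in the differences was not tested. An unadjusted p under 0.05 was found for 47 members, against 31% of all genes.

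mt-Nd5 had 163565, 146307, 192403 and 234368 normalized counts in WT mice and 266205, 265342, 369947 and 315966 in Klrk1-/- mice, a difference of 0.73 (SE 0.18, limma adjusted p = 0.0204). mt-Cytb differed by 0.71, mt-Nd4 by 0.63 and mt-Nd1 by 0.61. In each of these 4 genes every Klrk1-/- mouse was above every WT mouse, with an exact two-sided permutation p of 0.0286, the smallest for 4 against 4. Over all genes 9.54% were higher with no overlap. The calls were marginal: with each of the 8 mice left out in turn, mt-Nd5 passed 5 times, mt-Nd4 and mt-Cytb 2 times each and mt-Nd1 only 1 time, without WT NCD replicate 5. The adjusted p then ranged from 0.00831 to 0.0639 for mt-Nd5 and from 0.0171 to 0.123 for mt-Nd1, both highest without Klrk1-/- NCD replicate 3, the highest mouse in all 4 genes. mt-Co1, at 0.55 (limma adjusted p = 0.109), and mt-Nd6, at 0.88 (limma adjusted p = 0.0518), did not pass.

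The 4 nuclear members called on NCD were Atp5l, Ndufa4l2, Ndufa12 and Ndufa6. Atp5l, subunit g of the ATP synthase, had 110, 155, 137 and 157 normalized counts in WT mice and 227, 212, 305 and 199 in Klrk1-/- mice, a difference of 0.75 (SE 0.16, limma adjusted p = 0.0115) that passed in all 22 settings tried. It is also one of the 5 genes with more than 50% of their windows found elsewhere in the genome. Ndufa4l2 stood at 27.7, 17.1, 53.4 and 49.7 in WT mice and at 67.8, 92.1, 74.6 and 59.0 in Klrk1-/- mice, a difference of 1.08 (SE 0.31, limma adjusted p = 0.0384). Ndufa12 and Ndufa6, supernumerary subunits of complex I, differed by 0.47 and 0.34. With each mouse left out, Ndufa12 passed 6 times of 8, Ndufa4l2 3 times and Ndufa6 1 time. In complex II no member passed, with Sdhb at 0.23, Sdhc at -0.09, Sdhd at -0.29 and Sdha at -0.32 (limma adjusted p = 0.12). The number of calls rested on single mice, from 1 without WT NCD replicate 2 or without Klrk1-/- NCD replicate 3, where 3.78% and 2.74% of all genes were higher, to 25 (20 higher, 5 lower) without WT NCD replicate 5, where 8.31% were higher and 8.75% lower.

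On SSD 1 member, Sdhb, passed the test between the genotypes, and this count depended strongly on the method. edgeR and several other settings called no member. Array weights, DESeq2 or all 4 groups in 1 model called many more, at a higher share than over all genes. These counts are given in the last section. Of the 102 members tested 96 differences were positive, as were 1824 of those of the 2842 other genes with a mean of at least 1000. The medians were 0.26 for the nuclear and 0.34 for the mitochondrial members, and 52 members had an unadjusted p under 0.05, against 22.9% of all genes. Sdhb was called higher and none lower (limma, Benjamini-Hochberg over 13116 genes), against 1.22% and 1.68% of all genes, and past 1.5-fold 0 were called, against 0.709% and 1.42%. Sdhb had 3222, 3666, 3079, 3556 and 3190 normalized counts in WT mice and 4847, 4700 and 3912 in Klrk1-/- mice. Its difference was 0.42 (SE 0.10, limma adjusted p = 0.0488), with no overlap and an exact permutation p of 0.0357, the smallest for 5 against 3. The lack of overlap was not particular to Sdhb, since 26 members in all were higher with no overlap. The share of all genes with no overlap is not given here.

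The call of Sdhb was marginal: over the 22 alternative settings its adjusted p ranged from 0.00217 to 0.209, and 5 of them called it. Without WT SSD replicate 1, 3 members were called higher, against 2.24% of all genes. The members next to it were Atp5d, the delta subunit of the F1 stalk (0.39, limma adjusted p = 0.0592), and Ndufs8 (0.47) and Ndufs7 (0.53), the iron-sulfur subunits beside the quinone site of complex I (limma adjusted p = 0.0609 for both). Ndufs7 had 1386 to 2054 normalized counts in WT mice and 2670, 2806 and 2354 in Klrk1-/- mice. The summed hepatocyte markers were also higher in these Klrk1-/- mice, at 1889340 to 2052670 normalized counts against 1394340 to 1785250 in WT SSD mice, with Alb the 1 marker of 6 that did not overlap. The sums of Kupffer cell and macrophage markers were lower, at 4357 to 5659 against 5792 to 12582. Of these markers Cd68 and Cd5l were lower with no overlap, whereas Clec4f, Csf1r and Adgre1 overlapped. Their part in the differences was not tested.

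Promoters of the nuclear members were read for motifs of factors known to act on this gene set, over 250 bases before the start. RefSeq promoters (GRCm38.p6) were matched by symbol for 78 of the 97 nuclear members, and 77 with a distinct promoter were compared with 27025 promoters in all. The NRF1 motif was found on either strand in 13 of 77 (16.88%) against 3.86% of all. CCGGAAG, of the ETS family, was found in 13 of 77 (16.88%) against 7.05%, CCAAT of NF-Y in 44.16% against 34.46% and TATAAA in 9.09% against 12.97%. AAGATGGC of YY1 was found in 0 of 77 against 1.59%. These are matches of letters and not measured sites.

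Promoters are shown for 4 members that changed with diet and for Sdha, which held the most NRF1 matches of the complex II promoters read, each as the 150 bases before the start on the strand of the gene, with motif matches in capitals (CTTCCGG and ATTGG are CCGGAAG and CCAAT read on the other strand). Uqcr11 (chr10:80406822-80406971, minus strand) and Sdhb (chr4:140961121-140961270, plus strand) fell in both genotypes.

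Uqcr11 promoter: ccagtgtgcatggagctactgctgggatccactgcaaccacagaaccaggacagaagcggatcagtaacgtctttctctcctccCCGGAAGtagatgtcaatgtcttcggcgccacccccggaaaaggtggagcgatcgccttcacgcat

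Sdhb promoter: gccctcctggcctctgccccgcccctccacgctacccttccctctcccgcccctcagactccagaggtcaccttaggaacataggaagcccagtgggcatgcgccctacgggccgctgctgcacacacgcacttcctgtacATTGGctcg

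Sdha (chr13:74350241-74350390, minus strand) and Sdhd (chr9:50603850-50603999, minus strand) are the 2 of the 3 complex II genes read here that hold the NRF1 motif, the promoter of Sdhc not being matched. Sdha held 3 matches and passed in neither genotype, and Sdhd held 1 and fell in WT mice.

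Sdha promoter: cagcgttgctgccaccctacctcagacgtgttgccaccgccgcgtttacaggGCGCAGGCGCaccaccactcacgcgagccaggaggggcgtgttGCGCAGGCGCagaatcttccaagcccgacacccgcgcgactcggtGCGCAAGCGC

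Sdhd promoter: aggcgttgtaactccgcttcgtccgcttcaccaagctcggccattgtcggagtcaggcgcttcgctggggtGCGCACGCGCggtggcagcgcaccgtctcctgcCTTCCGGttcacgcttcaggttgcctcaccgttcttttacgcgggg

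Cox6b2 (chr7:4753095-4753244, minus strand) is the member that rose.

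Cox6b2 promoter: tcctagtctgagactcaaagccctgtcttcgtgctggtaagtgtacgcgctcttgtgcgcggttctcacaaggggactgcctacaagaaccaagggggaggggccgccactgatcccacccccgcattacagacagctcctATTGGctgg

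Genes that build the respiratory chain or feed it were examined from lists of the pathway, to be read against the 17.6% of all genes that fell and 17.3% that rose in WT mice and the 16% and 13.4% in Klrk1-/- mice. The counts and medians of the lists rest on the authors' factors, and no other scaling was tried for them. Of 78 proteins of the mitochondrial ribosome, which translates the 13 mitochondrial mRNAs, 41 fell in WT mice and 0 rose (median -0.32), and 29 fell in Klrk1-/- mice (-0.22). Mrps27 fell most, by 1.02 in WT and 0.81 in Klrk1-/- mice on the log2 scale. Of 24 tested assembly factors of complex IV, 11 fell and 1 rose in WT mice and 8 fell in Klrk1-/- mice, Higd1a most in both (-0.84 and -0.93). Of the 9 assembly factors of complex I outside the Nduf names 5 fell in WT and 4 in Klrk1-/- mice, with Foxred1 at -0.66 and -0.54. The lists for assembly of complexes II, III and V had 3 of 4, 4 of 9 and 3 of 5 genes falling in WT mice and 1, 2 and 2 in Klrk1-/- mice. Among 29 genes for upkeep and transcription of mitochondrial DNA 10 fell in WT mice and 0 rose, and 7 fell and 1 rose in Klrk1-/- mice. Hsd17b10, a subunit of the mitochondrial RNase P that cuts the tRNAs out of the long transcripts, fell by 0.96 and 0.94.

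In the tricarboxylic acid cycle, upstream of the chain, 5 of 14 genes fell and 1 rose in WT mice, with fumarase Fh1 at -0.88 and the NADP-dependent Idh2 at 0.68. On the Klrk1-/- background 2 fell and 3 rose, close to the shares of all genes. Of 8 genes for other routes of electrons into the quinone pool 3 rose and 3 fell in WT mice and 3 rose and 2 fell in Klrk1-/- mice. Among them Prodh, proline dehydrogenase, fell by 1.48 and 1.06, whereas Gpd2, the mitochondrial glycerol-3-phosphate dehydrogenase, rose by 0.61 in WT mice, and choline dehydrogenase Chdh and the electron transfer flavoprotein dehydrogenase Etfdh rose by 0.69 and 0.65 in Klrk1-/- mice. Their means were also higher on SSD in the other genotype. Gpd2 went from 376 to 534 in Klrk1-/- mice, and in WT mice Chdh went from 3400 to 4565 and Etfdh from 3520 to 4668. Of 4 tested genes for uncoupling and nucleotide exchange 2 rose and 1 fell in WT mice and 1 rose in Klrk1-/- mice. Ucp2, a mitochondrial carrier of the uncoupling family, rose by 1.37 in WT and by 0.64 in Klrk1-/- mice.

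Of 13 nuclear regulators 3 rose and 1 fell on SSD in WT mice, and 6 rose and 1 fell in Klrk1-/- mice. Esrra, a nuclear receptor that drives respiratory chain genes, was the one that fell in WT, from 909 ± 46.5 (SD, n = 4) to 583 ± 30.8 (SD, n = 5), a change of -0.64 (SE 0.08, limma adjusted p = 0.000111). Among Klrk1-/- mice the NCD group averaged 753 ± 63.8 (SD, n = 4) and the SSD group 691 ± 39.0 (SD, n = 3). It was the only gene of the pathway lists with an interaction call, at 0.52 (SE 0.11, limma adjusted p = 0.0371). Over all genes 0.321% had a positive and 0.559% a negative interaction call. Ppargc1a, the coactivator PGC-1alpha that works with Esrra, was higher by 1.28 (SE 0.18, limma adjusted p = 0.00121) in Klrk1-/- than in WT mice on NCD. It was the only regulator of 13 called there, and 4 of the 13 differences were positive. Over all genes 6.41% were called higher. Sco2, a copper chaperone of complex IV, was higher in Klrk1-/- mice on both diets, by 1.498 on NCD (limma adjusted p = 1.86e-05) and by 1.31 on SSD (limma adjusted p = 0.000395). Of the 24 tested assembly factors of complex IV, 3 were higher and 1 lower on NCD, and Sco2 alone was called on SSD, where 1.22% of all genes were higher.

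**Figure D5:**
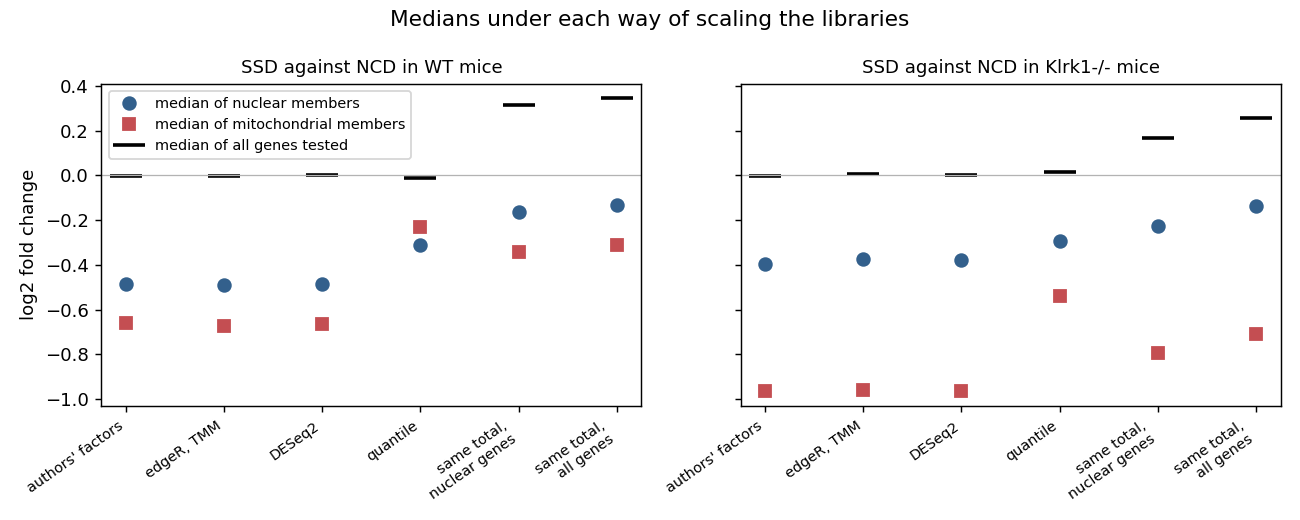
Median log2 fold change on SSD against NCD of the nuclear members (circles), the mitochondrial members (squares) and all genes tested (bars) under 6 ways of scaling the libraries, in WT mice (left) and Klrk1-/- mice (right). Under each of them both medians of the members lie below that of all genes, and under quantile normalization in WT mice the mitochondrial median (-0.23) lies above the nuclear one (-0.31).

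The order of the genomes and complexes was not equally firm under these scalings. In Klrk1-/- mice the mitochondrial median lay below the nuclear one in each, for example at -0.54 against -0.29 under quantile normalization, which sets the level of a gene by its rank. In WT mice it lay below except under quantile normalization. Among the named members that were called, Cox4i1, Cox5a and Ndufv1 in WT mice and mt-Nd1 and mt-Nd2 in Klrk1-/- mice turned positive under at least 1 scaling, mt-Nd1 to 0.21 and the others to 0.07 or less.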

How the data were processed

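Total RNA of whole liver was sequenced as single reads, 1 library per mouse. The study's methods give FastQC for read quality, STAR for alignment (GRCm39) and FeatureCounts with GENCODE genes for counting. The authors deposited 1 signal value per gene and mouse, a count divided by 1 factor per mouse (a normalized count). The methods name a total RNA library and the labels an mRNA library. Dividing by the smallest step of a library gave whole reads (within 0.001) for 100% of the values. Library totals were 19892025 to 28936707 reads. Groups were taken from the labels. Whether litters or cages differed is not given in the sources used here.

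Normalized counts were tested with limma 3.58.1 in R 4.3.3 (trend method) on log2(normalized count + 1), which understates changes of low genes. Each comparison used its own groups, the interaction all 16 mice. Genes with a mean of at least 10 were tested and p-values adjusted by Benjamini-Hochberg over all of them, so that 9, 8, 8, 9 and 9 members were not tested in the WT diet, Klrk1-/- diet, SSD genotype, NCD genotype and interaction models. Calls needed an adjusted p below 0.05, and in a second rule also the study's 1.5-fold limit. Single genes were tested by exact two-sided permutation. By rule, the text names the mitochondrial genes, up to 5 nuclear members with the largest called rises and falls of each comparison, a set of 13 reference subunits (1 is not reported here), the isoform sets, members at the floor, and up to 3 called genes of each pathway list. Other members, such as Ndufaf3, Ndufv2, Ndufs5, Ndufs7, Ndufs8, Ndufb4, Ndufb9, Uqcrc2, Cox7c and Atp5d, were named after their values were seen. The members and lists were chosen with earlier results of these data known. Alternatives were other pseudocounts, minimum means, scalings, variance models, edgeR 4.0.16 and DESeq2 1.42.0 on the recovered reads, a replicate block and leaving out each mouse. The fits were tested on simulated data. Windows of 100 bases of each transcript were searched in GRCm39 on both strands. Levels per kilobase used the gene lengths that the authors deposited. The deposited fraction of G and C bases per gene was not used in a test.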

Additional observations from a re-analysis of the deposited data

Results flagged for a closer look

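In 10 of 144 sets of values (1 gene or sum in 1 group of 4 or 5 mice, 6.94%) a single mouse lay far from the rest of its group by Dixon's criterion, which chance alone gives in about 1 of 20. Of these, 5 were WT NCD replicate 1, the highest mouse of its group each time: Ndufaf6 at 374 normalized counts against 263 to 267, Uqcrh at 6808 against 4247 to 4624, Cox5a at 3969 against 3467 to 3520, Ndufa4 at 11088 against 7257 to 7552 and Atp5g3 at 12803 against 10040 to 10479. Without this mouse 62 members fell and 1 rose on SSD in WT mice, against 14.3% and 13.2% of all genes.

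In WT SSD mice Cox6b2 stood at 122.6 in replicate 4 against 14.7 to 29.2 in the others. Replicate 3 of that group had the lowest Cox7a2, at 2885 against 3500 to 3566, and the most mitochondrial reads per read on a nuclear member, 6.86 against 5.604 to 5.85. Klrk1-/- NCD replicate 3 had the lowest Ndufs1, at 1486 against 1613 to 1614, and the highest Atp5g1, at 5397 against 4683 to 4747. It is also the mouse with the largest mitochondrial read share, 16.8%.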

How the results depend on the processing

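With the authors' factors 77 members were called for SSD against NCD in WT mice. The count was 17 (2 higher, 15 lower) with libraries scaled to the same total of all genes, 21 (2 and 19, against 44.7% and 6.01% of all genes) with the same total of nuclear genes, 42 (1 and 41, against 15.5% and 15.9%) under quantile normalization, 26 with a limit of 1.5-fold and 1 (higher, against 6.11%) with a limit of 2-fold. The nuclear median was then -0.13, -0.16 and -0.31 under the 3 scalings, and the mitochondrial median -0.31, -0.34 and -0.23. In Klrk1-/- mice 72 became 32 (7 higher, 25 lower, against 37.5% and 6.23% of all genes) and 43 (4 and 39, against 27.5% and 8.17%) under the 2 totals, 54 (2 and 52, against 14.6% and 13.97%) under quantile normalization, and 17 and 5 (1 and 4, against 2.53% and 2.92%) under the fold limits. The nuclear median was -0.14, -0.22 and -0.29 under the 3 scalings and the mitochondrial one -0.54 under quantile normalization. The same total of all genes moved the median of all genes to 0.34 in WT and 0.25 in Klrk1-/- mice. For Klrk1-/- against WT on SSD the single call became 0 with a pseudocount of 10, no minimum mean, a minimum of 50, no variance trend, robust eBayes, both totals, quantile normalization, edgeR or the fold limits, 22 with array weights or DESeq2 (4.95% and 4.08% of all genes higher), and 11 with all 4 groups in 1 model (3.21%). On NCD the 8 calls became 2 with no minimum mean (3.97% of all genes higher), 3 with no variance trend (3.15%), 20 with array weights (8.33%), 22 with the same nuclear total (6.99%), 18 under quantile normalization (7.01%), 16 with DESeq2 (8.35%) and 1 past 2-fold (0.849%). The interaction had 1 call with array weights or DESeq2. The cause of these shifts was not tested, except that fold limits drop small changes by construction.

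Of the named members that were called, these changed sign in WT mice: Cox4i1 to 0.025 under the same total and 0.026 under quantile normalization, Ndufv1 to 0.022 under the same total, and Cox5a to 0.032 under the same total and 0.0028 under the nuclear total. In Klrk1-/- mice mt-Nd2 went to 0.066 and mt-Nd1 to 0.21 under quantile normalization.

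Leaving out each mouse in turn gave 63 to 83 calls for the WT diet comparison (62 to 82 lower, against 14% to 17.4% of all genes, nuclear median -0.55 to -0.42, mitochondrial -0.75 to -0.54), 51 to 76 for the Klrk1-/- one (50 to 74 lower, against 10.5% to 15.4%, medians -0.45 to -0.30 and -1.13 to -0.82), 0 to 3 between genotypes on SSD (all higher, against 0.114% to 2.24%, medians 0.20 to 0.36 and 0.24 to 0.47), 1 to 25 on NCD (1 to 20 higher, against 2.74% to 8.31%, medians 0.087 to 0.24 and 0.49 to 0.74) and 0 to 1 for the interaction (0.0842% to 0.375%). Same-numbered mice did not deviate together (correlations -0.316 to 0.246). With so few mice this cannot show whether mice were matched by number, and the sources used here do not say what the numbers mean. With the replicate block 60 members were called in each diet comparison, 59 of them lower (11.9% of all genes lower in WT, 13.5% in Klrk1-/- mice), 6 higher between genotypes on SSD (2.003% of all genes), 20 on NCD (16 higher and 4 lower, against 8.70% and 9.67%) and 0 for the interaction.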
